A study of Mus musculus with 16 samples.

Results

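The response to interleukin-1β (IL-1β) was examined in bone marrow progenitors of control mice, in 8 of the 16 libraries of the series, chosen by their labels: 4 baseline libraries and 4 IL-1β libraries. All came from male C57Bl/6 mice with the phenotype Control and the treatment None. The other 8 libraries came from mice made diabetic with streptozotocin. Both groups had been depleted of marrow cells with the lineage markers Gr1, Ter119, B220, CD4 and CD3. The submitters call what remained haematopoietic stem cells; such a fraction is a mixture in which stem cells are a small part and committed progenitors are many. Each sample was divided. One portion gave baseline nuclei without delay, and its partner was kept with 10 ng/mL IL-1β in culture for 6 h. IL-1β and culture therefore always went together, no portion was cultured without IL-1β, and their effects cannot be told apart. Open chromatin of 50000 cells per library was read by ATAC-seq: Tn5, a transposase, inserts adapters where DNA is accessible. In such bulk samples, a change in the share of a cell type and a change within each cell cannot be told apart either. The numbered samples are called mice 1 to 4 below; the labels do not say whether a sample was 1 animal or a pool, and p-values measure the spread between these 4 samples.

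IL-1β is an inflammatory cytokine. It binds IL-1R1, which pairs with the accessory chain IL-1RAP, and signals through MyD88, the IRAK kinases and TRAF6 to NF-κB and to the MAP kinases that act on AP-1 factors such as Fos and Jun. IL-1R2 is a decoy receptor without a signalling domain, and IRAK3, IκBα (Nfkbia), A20 (Tnfaip3) and the Dusp phosphatases act as brakes. In bone marrow, IL-1 is known for driving progenitors towards granulocytes and macrophages.

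The 8 peak lists held 467267 peaks, between 37543 (IL-1β, mouse 2) and 72525 (baseline, mouse 3) per library. Peaks per library were 63834 ± 8639 (SD, n = 4) at baseline and 52983 ± 12801 (SD, n = 4) after IL-1β. The difference, -10850, did not pass a two-sided exact sign-flip test (p = 0.375; 4 mice cannot give less than 0.125). Background, taken as the most frequent local background of a library's summits and read as its genome-wide level, ran from 1.05 to 1.71 reads per library. Signal over background, the median reads of shared regions divided by that level, was 32.9 ± 5.93 (SD, n = 4) at baseline and 27.7 ± 6.50 (SD, n = 4) after IL-1β (exact sign-flip p = 0.375), and was lowest, at 19.3, in mouse 2 after IL-1β. Without mouse 2 the difference in signal over background went from -5.17 to -1.02, and that in peaks from -10850 to -6198 (-6684 without mouse 3). Peaks merged into 92266 regions, of which 73845 had a call in 2 or more libraries. Calls in every one of the 8 were made at 29625.

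IL-1β with culture moved the chromatin of these cells in both directions. Among the 29625 regions called in all 8 libraries, 2902 rose (9.8%) and 1415 fell (4.78%) at an adjusted p of 0.05 (limma on log2 reads at the highest summit, libraries scaled to equal medians, mouse as a block, Benjamini-Hochberg adjustment over all regions). Of the risen regions 2681 were higher in 4 of 4 mice, and of the fallen regions 1302 were lower in 4 of 4. The 4 IL-1β values did not overlap the 4 baseline values at 54.3% of risen and 68.4% of fallen regions, against 4.58% of regions not called. Most changes were modest: the median log2 change was 0.46 for risen and -0.55 for fallen regions, and 150 rises and 43 falls exceeded 2-fold. A median risen region went from 41.1 to 58.3 scaled reads and a median fallen region from 41.0 to 27.6. Without the mouse block, 1287 regions rose and 728 fell.

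Falls lay mostly away from gene ends, while the share of rises at gene ends depended on the scaling. Of fallen regions 13.1% had their summit within 1 kb of either end of a gene, against 33.4% of all regions tested; 47.4% lay inside gene bodies and 39.6% between genes. Of risen regions 31.5% lay at gene ends with median scaling, but 16% with cyclic loess, which removes a shift that depends on read level, and 14.8% without the mouse block. Cyclic loess called 1977 rises (6.67%) and 1445 falls (4.88%), of which 1931 and 1183 were also called with median scaling. Rises were 57.8% of its calls, against 67.2% with median scaling. Scaling by each library's background gave 19 rises and 75 falls, or 20.2% rises. The median change of all tested regions was then -0.22, against 0.05 with median scaling, and it differed between mice, at -0.12, -0.88, -0.06 and 0.20 in mice 1 to 4.

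The scaling mattered most where reads were highest. Ordered by reads into 5 equal groups, in the highest (median 96.2 scaled reads) 74.5% lay at gene ends and the median log2 change was 0.13; loess turned the 947 rises and 59 falls there into 233 and 260. In the middle of the 5 groups (median 35.9 reads) the counts were 553 and 481 with median scaling and 524 and 354 with loess. Below, a region is counted for each listed gene within 10 kb, so some lie nearer to a neighbour. For example, those of Tnip1 and Padi4 with the largest changes lie nearest Anxa6 and Padi3. Single regions named passed under both scalings unless a lost call is stated.

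**Figure D1:**
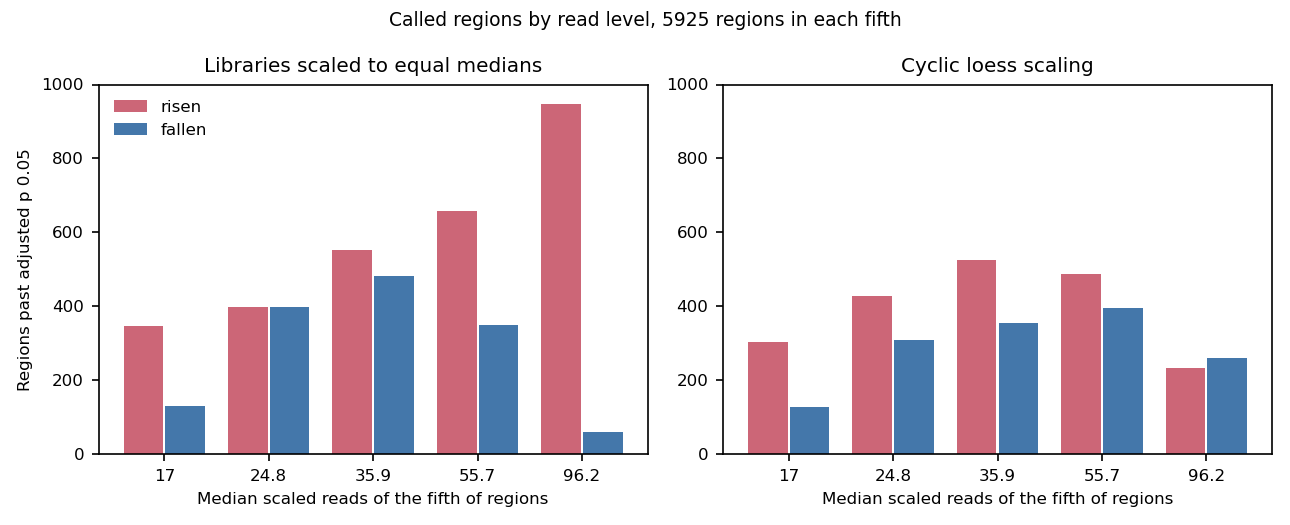
Number of risen and fallen regions (y axis) in 5 equal groups of regions ordered by mean reads (x axis), with median scaling on the left and cyclic loess on the right. In the group with most reads 947 regions rose and 59 fell with median scaling, and 233 rose and 260 fell with loess.

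Sequences of a few promoters in changed regions follow, to show where motif matches fall. On both strands of the 250 bases before RefSeq start sites (GRCm38.p6), 11 patterns were searched. The AP-1 pattern was TGANTCA, the letters bound by Fos and Jun dimers, and the CRE of the CREB family was TGACGTCA. For the lineage factors, PU.1 was searched as GAGGAAGT, C/EBP as TTGCNNAA, the RUNX family as TGTGGTT and the GATA factors of red cells and mast cells as AGATAA. The E-box of Myc and the clock factors was CACGTG, and the GC box of the KLF and SP families was GGGCGGG. The κB site, the interferon response element ISRE and the glucocorticoid response element were searched too. No pattern contains another. Matches are in capitals. The Creb5 and Smim14 promoters lie in risen regions and hold an AP-1 match. The Cyba promoter lies in a risen region, and its capitals mark a GATA and a KLF/SP match. The Hdc and Slfn4 promoters lie in fallen regions, with a KLF/SP and an AP-1 match. All are among the 12 largest rises or 12 largest falls of regions that overlap a promoter. These 5 were picked from them after their values were seen.
Creb5 (chr6:53573124-53573373, plus strand): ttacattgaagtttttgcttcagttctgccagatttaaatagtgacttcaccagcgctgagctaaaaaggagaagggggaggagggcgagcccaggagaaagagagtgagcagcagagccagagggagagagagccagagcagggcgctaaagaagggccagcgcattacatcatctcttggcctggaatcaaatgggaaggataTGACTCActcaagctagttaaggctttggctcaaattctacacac
Smim14 (chr5:65484062-65484311, minus strand): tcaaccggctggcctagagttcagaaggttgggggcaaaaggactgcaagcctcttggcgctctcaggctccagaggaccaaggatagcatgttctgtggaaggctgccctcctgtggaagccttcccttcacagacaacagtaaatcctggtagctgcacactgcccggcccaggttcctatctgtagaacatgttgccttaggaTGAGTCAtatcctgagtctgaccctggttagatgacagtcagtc
Cyba (chr8:122432941-122433190, minus strand): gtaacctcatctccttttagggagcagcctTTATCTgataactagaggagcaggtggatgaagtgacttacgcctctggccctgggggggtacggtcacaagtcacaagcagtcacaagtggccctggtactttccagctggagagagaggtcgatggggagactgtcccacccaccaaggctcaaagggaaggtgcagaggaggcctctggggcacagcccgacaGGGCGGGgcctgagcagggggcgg
Hdc (chr2:126618679-126618928, minus strand): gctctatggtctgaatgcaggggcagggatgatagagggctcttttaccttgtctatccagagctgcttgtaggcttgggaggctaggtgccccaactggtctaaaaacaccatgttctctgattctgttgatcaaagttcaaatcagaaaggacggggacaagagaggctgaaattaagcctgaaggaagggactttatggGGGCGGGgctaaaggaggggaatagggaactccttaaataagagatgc
Slfn4 (chr11:83174936-83175185, plus strand): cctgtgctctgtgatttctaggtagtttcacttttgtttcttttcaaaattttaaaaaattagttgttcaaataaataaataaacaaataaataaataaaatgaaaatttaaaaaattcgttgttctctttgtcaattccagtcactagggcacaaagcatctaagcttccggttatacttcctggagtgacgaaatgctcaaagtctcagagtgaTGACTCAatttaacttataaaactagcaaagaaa

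The AP-1 match begins 45 bases before the start site of Creb5, a CREB-family transcription factor, 44 bases before that of Smim14, a small membrane protein, and 34 bases before that of Slfn4, a Schlafen gene of myeloid cells. The Creb5 region (chr6:53573005-53573539) held 16.5, 11.8, 7.98 and 12.4 scaled reads at baseline and 31.9, 18.9, 24.6 and 27.5 after IL-1β in mice 1 to 4, a log2 change of 1.10 (SE 0.22, adjusted p = 0.000282). The Smim14 region went from 29.7, 35.4, 30.5 and 22.8 to 61.3, 65.3, 50.5 and 59.3 reads (log2 change 1.01, adjusted p = 1.13e-07). The groups did not overlap in either region. The Slfn4 region, by contrast, fell from 47.8, 43.5, 35.5 and 50.8 to 25, 26.1, 28.5 and 23.1 reads (log2 change -0.78, adjusted p = 0.000212); it covers the match and the start site but not the far end of the printed stretch. The same AP-1 letters thus stood in promoters of risen and of fallen regions.

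Across promoters, the AP-1 motif was found in 3.64% of the 10103 that overlapped tested regions and in 6.13% of all 21262 in the table. Its share was 5.51% of the 1035 promoters in risen regions, 10.6% of the 303 in regions risen under both median scaling and loess, and 5.76% of the 139 in fallen regions. The κB motif stood in 4.73% of promoters in risen regions, 2.88% of those in fallen regions and 4.46% of those in tested regions. Under both scalings it stood in 6.6% of the 303 promoters in risen regions and in 1.71% (2 promoters) of the 117 in fallen regions. The PU.1 motif stood in 3.77%, 5.76% and 2.65% of promoters in risen, fallen and tested regions, and the C/EBP motif in 8.31%, 13% and 6.97%. The KLF/SP motif stood in 57.9% of promoters in risen regions, 47.9% of those risen under both scalings and 47.7% of those in tested regions, sets whose median GC content was 64.8%, 62.0% and 61.2%. These shares are descriptions with no test.

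The largest rise lay 3491 bp from Ankrd12, an ankyrin-repeat nuclear protein (chr17:65961479-65962212). This region held 14.8, 9.97, 7.98 and 10.4 scaled reads at baseline and 50.9, 43.5, 35 and 49.5 after IL-1β, a log2 change of 2.07 (SE 0.19, adjusted p = 1.85e-10). All 4 IL-1β values stood above all 4 baseline values, by more than 2-fold even between the nearest pair. A region inside Msmo1, an enzyme of cholesterol synthesis (chr8:64726081-64726807), went from 23.9, 9.06, 14.5 and 17.6 to 55.2, 46.4, 45.3 and 51.6 reads (log2 change 1.69, SE 0.18, adjusted p = 2.45e-09). A region inside Rac1, a small GTPase of actin movement and of the phagocyte oxidase, went from 17.3, 12.7, 11.6 and 16.6 to 48.4, 37.7, 45.3 and 45 reads (1.62, adjusted p = 7.42e-09). The other named rises had log2 changes between 1.47 and 1.77. Some lay inside Rin3, an exchange factor for Rab5, Rptor, a subunit of mTORC1, Tram2 and Gch1, which makes the cofactor of nitric oxide synthase. Others lay 205 bp from Hspb7, a small heat shock protein, and 3296 bp from Sema4a, a semaphorin. More distant were those 10497 bp from Gm38664 and 22061 bp from B4galt1, a galactosyltransferase. A further one, on chromosome 15, had no gene within 50 kb. Of the 12, the groups overlapped only at Tram2, where the baseline value of mouse 1 was 28.8 reads and the lowest IL-1β value 22.

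**Figure D2:**
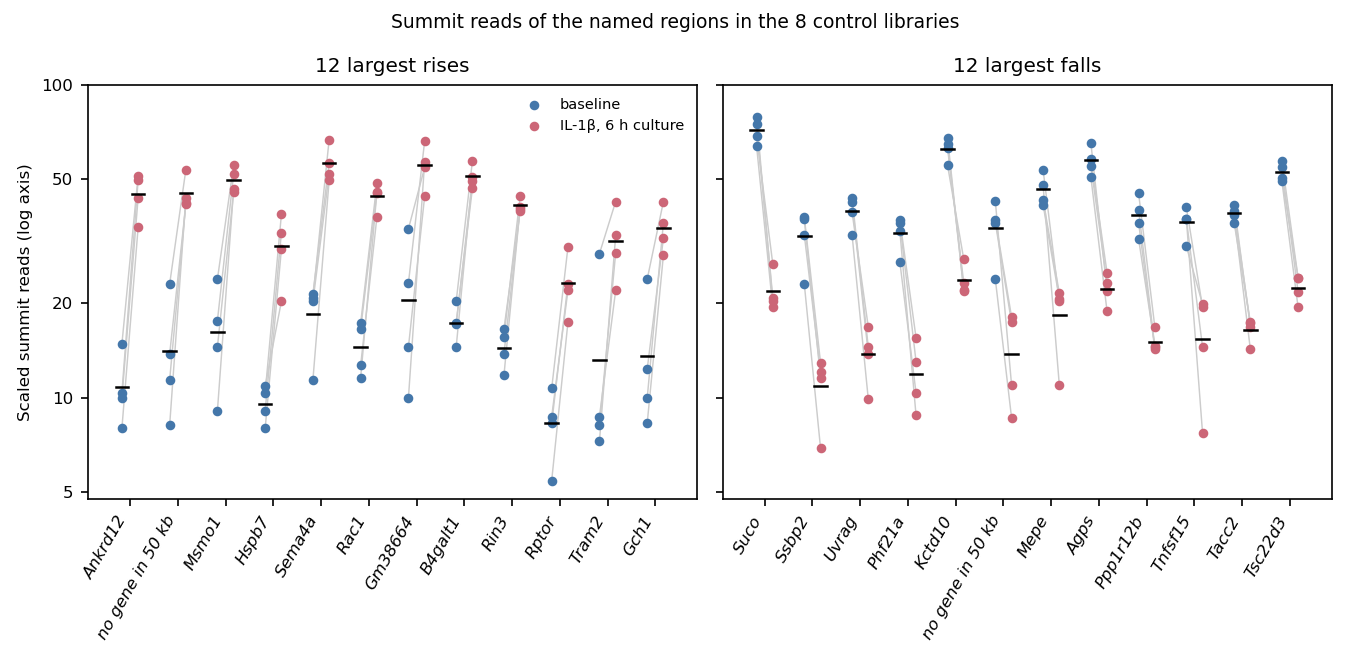
Scaled summit reads (log axis) of the 12 largest rises and 12 largest falls, by nearest gene, with 1 point per library, lines joining the 2 portions of a mouse and black bars for the means of 4. At Ankrd12 the IL-1β points sit between 35 and 50.9 reads, above the baseline points at 7.98 to 14.8, and at Suco the IL-1β points sit between 19.4 and 26.8, below 63.8 to 78.9.

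The largest fall lay 19217 bp from Suco, a SUN-domain protein (chr1:161896054-161896529). Its reads went from 68.4, 78.9, 63.8 and 74.6 at baseline to 26.8, 20.3, 19.4 and 20.9 (log2 change -1.72, SE 0.13, adjusted p = 7.35e-13). A region inside Kctd10, an adaptor of cullin-3 ubiquitin ligases, went from 55.2, 62.5, 64.5 and 67.3 to 27.6, 23.2, 22 and 22 reads (-1.40, adjusted p = 2.66e-10). A region 1517 bp from Tsc22d3, which encodes the glucocorticoid-induced leucine zipper GILZ (chrX:140537704-140538011), went from 50.3, 54.4, 49.3 and 57.0 to 24.2, 21.8, 19.4 and 24.2 reads (-1.24, SE 0.14, adjusted p = 1.7e-08). In these 3 regions the groups were clearly apart. At Tsc22d3 the deposited fold over local background did not follow the reads, with a log2 change of 0.09, since its background fell as well (below). The other named falls had log2 changes between -1.60 and -1.24. Some lay inside Ssbp2, a partner of LDB1 complexes, Uvrag, an autophagy protein, and Phf21a, a histone reader. Others lay inside Ppp1r12b, a myosin phosphatase subunit, and Tacc2. Between genes, falls lay 45930 bp from Mepe, 49780 bp from Agps, an enzyme of ether lipid synthesis, and 41079 bp from Tnfsf15, a TNF-family cytokine. Another, on chromosome 16, lay more than 50 kb from any gene. The groups did not overlap in any of the 12.

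The receptor machinery of IL-1 itself changed in opposite directions by member. Regions within 10 kb of the 21 genes of the receptor and its proximal adaptors numbered 64. Of these 8 rose and 11 fell (12.5% and 17.2%, beside 9.8% and 4.78% of all regions). The counts were 6 and 11 with loess, and 3 and 5 without the mouse block. The median log2 change was 0.01, against 0.05 over all regions. Irak2, a kinase of the receptor complex, had 5 risen regions and 1 fallen region among 12. Its strongest, inside the gene (chr6:113654852-113655370), went from 19.8, 21.8, 21.8 and 23.8 to 44.0, 63.8, 51.8 and 46.1 reads (log2 change 1.23, SE 0.15, adjusted p = 5e-08), with no overlap between groups. 1 of 2 regions at Il1r1, the signalling receptor, rose (0.69, adjusted p = 0.0092), with overlapping groups. Single regions at Map3k7, the kinase TAK1, and at Ecsit rose by 0.30 and 0.28, and neither passed with loess.

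Fallen regions lay at the accessory and decoy chains. At Il1rap 3 of 5 regions fell. The largest of these (chr16:26692652-26692997) went from 47.0, 52.6, 41.3 and 54.9 to 22.4, 27.6, 31.1 and 31.9 reads (log2 change -0.80, SE 0.14, adjusted p = 4.37e-05), with no overlap; on the deposited fold its change was 0.05. At Il1r2, the decoy receptor, 3 of 4 regions fell, by 0.58, 0.57 and 0.35 on the log2 scale. Both regions at Il18rap, the accessory chain of the IL-18 receptor, fell, the larger from 54.4, 66.2, 54.4 and 69.4 to 38.9, 29.0, 41.4 and 35.2 reads (-0.76, adjusted p = 1.17e-05; 0.06 on the deposited fold). At Irak3, an inhibitor, 2 of 8 regions fell (-0.40, lost with loess, and -0.28). No region at Myd88, Traf6, Irak1 or Irak4 passed; their estimates ran from -0.27 to 0.20.

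Of 78 regions at 22 inhibitors and feedback genes of NF-κB 16 rose and 2 fell (20.5% and 2.56%, beside 9.8% and 4.78% of all regions; 12 and 5 with loess, 10 and 1 without the block, 0 and 0 with background scaling), with a median of 0.15 (-0.11 with background scaling). Bcl3, an IκB-family co-regulator, had 3 risen regions. The strongest, 1173 bp from the gene (chr7:19823997-19824555), went from 58.5, 49.9, 50.0 and 39.4 to 82.9, 84.1, 89.3 and 93.4 reads (log2 change 0.83, SE 0.10, adjusted p = 4.08e-08), with no overlap. At Tnip1, a partner of A20, 3 of 4 regions rose (largest 0.81), at Zc3h12a, an RNase that degrades cytokine mRNA, 2 of 5 (0.64), and 1 each at Traf1 (0.71), Tnfaip3 (0.59, higher in 3 of 4 mice) and Birc3 (0.34). Nfkbia had 2 risen regions, of 0.35 and 0.26, the smaller lost with loess. The fallen regions lay at N4bp1 (-0.41) and Zfp36 (-0.25), and another Zfp36 region rose by 0.28 with median scaling only. Among the NF-κB subunits and kinases 5 of 36 regions rose and 2 fell (13.9% and 5.56%). The counts were 4 and 1 with loess, and 1 and 0 without the block. The risen region at Relb, a subunit of the alternative pathway, rose by 0.36 (adjusted p = 0.0012), and no region at Rela, Rel, Nfkb1 or Nfkb2 passed.

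**Figure D3:**
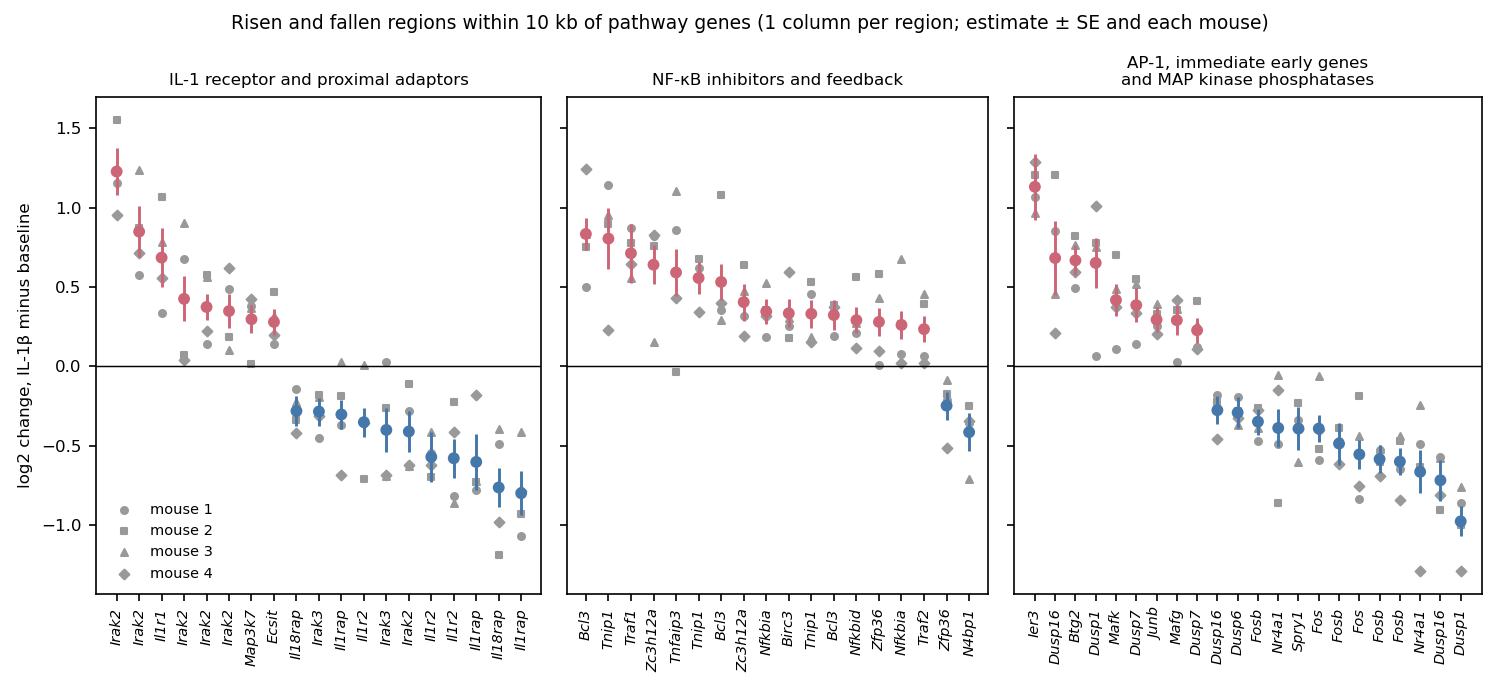
Log2 change (y axis, IL-1β minus baseline) of each risen and fallen region, 1 column per region; coloured points with bars give the estimate and its SE and grey symbols each mouse, for the IL-1 receptor list, the NF-κB feedback list, and the AP-1 and immediate early lists. Irak2 reaches 1.23 and Bcl3 0.83, while Il1rap lies at -0.80, Dusp1 at -0.98 and Fosb at -0.60.

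The regions at Fos and Fosb, AP-1 subunits and immediate early genes, held fewer reads after IL-1β and culture. Of 45 regions at 14 AP-1 genes 3 rose and 6 fell (6.67% and 13.3%, beside 9.8% and 4.78% of all regions). All 6 falls lay at Fos and Fosb. The counts were 1 and 10 with loess, and 1 and 6 without the block. The region over Fos (chr12:85473397-85474722) went from 103, 111, 100 and 124 to 57.8, 97.2, 73.8 and 73.6 reads (log2 change -0.55, SE 0.09, adjusted p = 1.67e-05). At Fosb 4 of 5 regions fell, the largest 9448 bp away from 110, 130, 112 and 134 to 69.9, 94.3, 82.9 and 74.7 reads (-0.60, adjusted p = 9.96e-07). Neither pair of groups overlapped. On the deposited fold both moved the other way, by 1.12 at Fos and 0.21 at Fosb, because the local background in that ratio fell more than the reads. Rises at Junb (0.29) and Mafg (0.29) were lost with loess, and that at Mafk (0.42) was not. No region at Jun, Fosl1, Fosl2 or Atf3 passed.

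Other immediate early genes and phosphatases were mixed, with 6 of 70 regions risen and 7 fallen (8.57% and 10%, beside 9.8% and 4.78% of all regions). The counts were 4 and 12 with loess, and 4 and 3 without the block. A region 2091 bp from Dusp1, a phosphatase that switches off p38 and JNK (chr17:26502873-26503500), went from 92.3, 89.7, 89.9 and 105 to 50.9, 45, 53.1 and 42.9 reads (log2 change -0.98, SE 0.10, adjusted p = 3.97e-10), with groups far apart; another Dusp1 region rose by 0.65. On the deposited fold the first changed by 0.46. Regions at Dusp16 (-0.72) and Nr4a1, an orphan nuclear receptor (-0.66), fell, and another Dusp16 region rose with median scaling. Ier3, a survival gene, had the largest rise, 7698 bp away, from 14.8, 8.16, 15.2 and 10.4 to 31.1, 18.9, 29.8 and 25.3 reads (1.13, adjusted p = 0.000127), and Btg2, an anti-proliferative gene, had 1 of 0.67.

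The local background in the deposited fold was looked at after the folds had been seen to differ from the reads, and is described without a test. It is an estimate from the surroundings of a summit that does not go below the library's genome-wide background, which acts as a floor; here it is scaled like the reads. Median scaling itself moved that floor, by a mean log2 change of 0.26 (0.16, 0.94, 0.13 and -0.18 in mice 1 to 4), so a rise of a value at the floor is not read as a local change. At 17% of regions at least 1 library was within 5% of the floor. Among the 24589 regions above it in all 8 libraries the median log2 change was 0.10, and it was 0.34 at the 2611 risen and -0.23 at the 1138 fallen regions of these. Of 22 regions where it fell more than 2-fold, 20 had fallen reads, beside 4.78% of all regions. Of 29 where it rose more than 2-fold, 25 had risen reads, beside 9.8% of all regions. Reads and background were solved from the same deposited fold and p of a summit. Their agreement is therefore no independent support for either. Among all 29625 regions the lowest changes belonged to Fosb, Fos, Tsc22d3 and Dusp1. At one Fosb region (chr7:19307722-19308966) the background went from 23.1, 32.9, 31.0 and 34.8 to 7.12, 8.38, 8.03 and 7.85 (log2 change -1.94). At the Fos region it went from 28.2, 35.8, 35.1 and 38.7 to 10.6, 12.3, 12.1 and 10.5 (-1.60), and at the Dusp1 region from 18.8, 23.9, 24.2 and 27.7 to 8.44, 10.4, 10.3 and 7.77 (-1.36). In each of these 3 regions the groups did not overlap. At Klf2, a quiescence-associated factor, the background also fell, from a mean of 43.3 to 20.3, while its summit reads did not pass. At the other extreme stood Bhlhe40, a stress-responsive repressor (1.56 to 4.78), Lcn2, a neutrophil granule protein (4.63 to 12.9), and Ankrd12 (1.25 to 3.35). The baseline values of Ankrd12 and the baseline value of Bhlhe40 in mouse 2 were low, near the floor.

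Actin and phagocyte oxidase genes carried many risen regions. The actin list was drawn up with risen regions at such genes already known, so its count restates that choice in part. With background scaling, the sterol and heat shock lists were the only ones of the 35 with a rise (1 each), and falls were called in 6 lists: 2 at glucocorticoid genes and 1 each at immediate early, growth factor receptor, primary granule, monocyte and circadian genes. Of 121 regions at 23 genes of the actin cytoskeleton, 45 rose and 2 fell (37.2% and 1.65%, beside 9.8% and 4.78% of all regions). The counts were 35 and 3 with loess, and 28 and 1 without the block. The median log2 change was 0.22 (0.08 on the deposited fold). With background scaling 0 of the 121 regions rose and their median was -0.04. Over all regions 19 rose with that scaling. A region in Myo1f, a myosin of neutrophils (chr17:33564601-33564988), went from 21.4, 22.7, 18.9 and 19.7 to 48.4, 69.6, 53.1 and 52.7 reads (log2 change 1.43, SE 0.14, adjusted p = 1.17e-09). A region inside Capg, which caps actin filaments (chr6:72548969-72549582), had its summit 521 bp from a RefSeq start site that it does not cover. Its reads went from 28.0, 24.5, 27.6 and 30.04 to 69.1, 81.2, 67.3 and 64.8 (1.36, SE 0.12, adjusted p = 4.7e-11). A region 4752 bp from Actb, cytoplasmic actin, rose by 1.29 (adjusted p = 1.3e-07). The groups did not overlap in these 3.

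Of 54 regions at 13 oxidase and killing genes, 18 rose and 1 fell (33.3% and 1.85%, beside 9.8% and 4.78% of all regions). The counts were 14 and 3 with loess, 14 and 0 without the block, and 0 and 0 with background scaling. The median was 0.19 (-0.07 with background scaling). This list, like the others, was chosen with earlier results of these data known, so its count is no independent support. It holds Gch1, 1 of the 12 largest rises. Cyba, a membrane subunit of the oxidase whose promoter is printed above, went from 42.0, 40.8, 45.7 and 42.5 to 78.6, 91.4, 73.8 and 76.9 reads over its start (log2 change 0.90, SE 0.10, adjusted p = 6.82e-09). Slc11a1, the metal transporter NRAMP1 of phagosomes (chr1:74381446-74381985), went from 23.9, 15.4, 13.1 and 12.4 to 44.0, 39.2, 46.6 and 40.7 reads (1.44, SE 0.18, adjusted p = 1.32e-07). Regions at the cytosolic subunits Ncf4 (up to 0.91) and Ncf1 (up to 0.89; reads there may be shared with near-identical copies) also rose.

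Of 49 regions at genes of eicosanoid synthesis, 12 rose and 3 fell (24.5% and 6.12%, beside 9.8% and 4.78% of all regions). With loess the counts were 9 and 3. At Alox5, the 5-lipoxygenase of leukotriene synthesis, a region went from 55.2, 45.3, 50.0 and 41.4 to 66.5, 71.1, 81.6 and 70.3 reads (log2 change 0.60, adjusted p = 2.97e-05). Pla2g4a, the phospholipase that frees arachidonic acid, had a fall of 0.71. A region counted for Ptges2 is the one counted for its neighbour Lcn2. Of 58 regions at adhesion and retention genes, 11 rose and 3 fell (19% and 5.17%), and 11 and 5 with loess. The integrin chain Itgb2 went from 28.8, 29.9, 39.9 and 36.3 to 60.4, 78.3, 68.6 and 60.4 reads (0.99, adjusted p = 2.93e-08), and Selplg, the ligand of P-selectin, rose by 0.79. The integrin Itga5 (-0.84) and Cd44 (-0.53) had fallen regions, and another Itga5 region rose with median scaling.

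**Figure D4:**
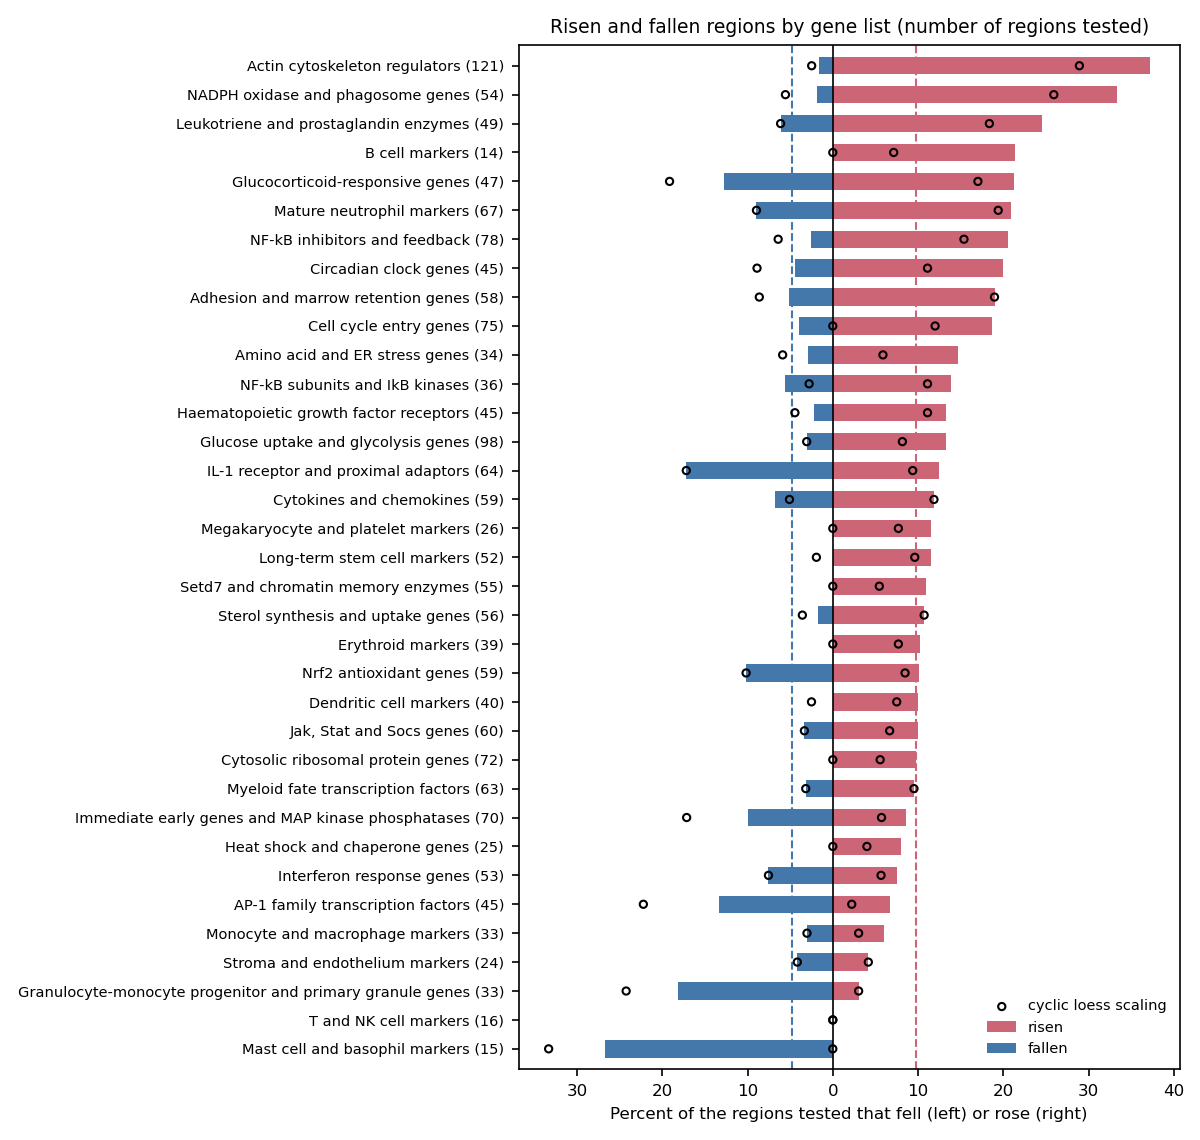
Percent of each list's tested regions that rose (bars to the right) and fell (bars to the left) with median scaling; open circles give the shares with cyclic loess, and numbers after the names the regions tested; dashed lines mark 9.8% and 4.78%, the shares over all regions tested. The actin list lies at 37.2% risen and the mast cell and basophil list at 0% risen and 26.7% fallen.

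In the list of granulocyte-macrophage progenitor and primary granule genes, most called regions fell, at a few of its genes. At genes of mature neutrophils both rises and falls were more frequent than over all regions, and rises were 70% of the calls, near the 67.2% over all calls. Of 33 regions at these 14 genes, 1 rose and 6 fell (3.03% and 18.2%), with a median of -0.08 (0.01 on the deposited fold). The counts were 1 and 8 with loess, and 0 and 4 without the block. At Plac8, a region went from 43.7, 48.0, 42.8 and 43.5 to 22.4, 27.6, 28.5 and 15.4 reads (log2 change -0.96, adjusted p = 1.78e-05), and at Ctsg, cathepsin G, from 29.7, 36.3, 34.8 and 31.1 to 20.7, 14.5, 24.6 and 20.9 (-0.73, adjusted p = 0.0043). The other falls lay at Srgn and Ms4a3, with a further one at Plac8, and the single rise lay at Cst7 (0.45). No region at the primary granule genes Mpo, Elane or Prtn3 passed. Estimates were -0.50 and -0.52 at Mpo and ran from -0.09 to 0.002 at Elane and Prtn3. Of 67 regions at 17 genes of mature neutrophils, 14 rose and 6 fell (20.9% and 8.96%; 13 and 6 with loess, 9 and 5 without the block), with a median of 0.16 (0.02 on the deposited fold). A region at Lcn2 went from 23.9, 36.3, 32.6 and 23.8 to 57.0, 69.6, 60.9 and 46.1 (1.01), S100a9 rose by up to 0.66 and Padi4, which citrullinates histones, by up to 0.64. The falls lay at Retnlg, Chil3, Cd177 and Ltf. The difference between these lists was not tested.

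Genes of mast cells and basophils had 0 risen and 4 fallen regions of 15 in limma (0% and 26.7%, beside 9.8% and 4.78% of all regions). With loess 5 fell, and without the block 2. At an unadjusted p under 0.05 in limma 1 was higher and 8 lower. However, regions were found at only 3 of 12 genes, and none at Cpa3, Mcpt8 or Fcer1a, which define these cells. At the start of Hdc, the histamine-forming enzyme whose promoter is printed above, reads went from 33.8, 49.9, 42.1 and 44.5 to 19, 21.8, 32.4 and 26.4 (log2 change -0.79, adjusted p = 0.000276), with no overlap; on the deposited fold it changed by 0.14. A region at Cd200r3 went from 22.2, 19.9, 22.5 and 23.8 to 13.8, 17.4, 19.4 and 6.59 (-0.74, adjusted p = 0.0253), with no call without the block. The mean log2 reads of this list ran from 5.28 to 5.39 over baseline libraries and from 4.98 to 5.29 over IL-1β libraries.

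Markers of lymphoid, erythroid and other cells were counted too, since the depletion may leave some of them (those of neutrophils, which carry Gr1, are given above). Of 16 regions at T and NK cell genes none rose or fell in limma with either scaling (1 higher and 1 lower at an unadjusted p under 0.05), and no region called in all 8 libraries lay at Cd3e, Cd8a, Ncr1 or Tbx21; the mean log2 reads of the list ran from 4.74 to 4.97 at baseline and from 4.77 to 4.999 after IL-1β. Of 14 regions at B cell genes 3 rose (21.4%), and 1 with loess. The largest rise lay 827 bp from Cd79a (0.55), but its summit was 11 bp from the start site of Arhgef1, the gene nearest to it. Of 39 erythroid regions 4 rose (10.3%), and the list's median change differed between mice, at 0.38, 0.01, -0.03 and 0.43. Its level at baseline ranged more widely than that of other lists, from 4.58 to 5.49. Megakaryocyte genes had 3 rises of 26 regions (11.5%), and stroma and endothelium 1 rise and 1 fall of 24 (4.17% each). Over all regions 9.8% rose and 4.78% fell. Whether shifts in these cells take part in the changes above was not tested.

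Among other myeloid types, dendritic cell genes had 4 rises and 0 falls of 40 regions in limma (10% and 0%). Over all regions the shares were 9.8% and 4.78%. With loess 1 dendritic region fell, and with median scaling 2 were lower in limma at an unadjusted p under 0.05. At Zbtb46, the factor of classical dendritic cells, 2 of 9 regions rose. The larger rise went from 18.1, 15.4, 15.2 and 12.4 to 29.4, 24.7, 33.7 and 33.0 reads (log2 change 0.98, adjusted p = 0.000418). Monocyte and macrophage genes had 2 rises and 1 fall of 33 (6.06% and 3.03%). The fall lay at F13a1, coagulation factor XIII, from 31.3, 35.4, 33.4 and 28.0 to 18.1, 17.4, 12.9 and 14.3 (-1.04, adjusted p = 0.00012).

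At genes of stem cells 6 of 52 regions rose and none fell with median scaling in limma (5 and 1 with loess, 3 and 0 without the block; 2 lower at an unadjusted p under 0.05), a share of rises of 11.5% beside 9.8% overall. No region called in all 8 libraries lay at Slamf1 or Tek. A region in Fli1, an ETS factor, went from 28.0, 16.3, 27.6 and 21.8 to 34.5, 29.0, 41.4 and 41.8 reads (log2 change 0.67, adjusted p = 0.00405), and 1 in Mecom rose by 0.57 (adjusted p = 0.028; no call without the block). Of 63 regions at factors of myeloid fate, 6 rose and 2 fell (9.5% and 3.2%), near the shares of all regions (9.8% and 4.78%). Irf5, a factor of inflammatory macrophages, had the largest, from 45.3, 28.1, 35.5 and 38.3 to 56.1, 62.4, 60.9 and 60.4 (0.72, adjusted p = 2.19e-05). Rises were called at 1 of 15 regions at Runx1 (0.69), 1 of 4 at Cebpe (0.41) and 1 of 5 at Spi1, which encodes PU.1 (0.32). A region in Myb, a factor of immature progenitors, went from 30.5, 32.6, 21.8 and 42.5 to 12.9, 21.8, 20.7 and 19.8 (-0.75, adjusted p = 0.006), with groups that touched at 21.8.

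Cytokine and chemokine genes had 7 rises and 4 falls of 59 regions (11.9% and 6.78%), near the shares of all regions. The region nearest Il10, which encodes an anti-inflammatory cytokine, 742 bp away, went from 40.4, 26.3, 39.2 and 38.3 to 76.8, 79.8, 66.0 and 71.4 reads (log2 change 1.04, adjusted p = 6.82e-09). Regions at Il1a (0.75) and Cxcl10 (0.60) rose, and another Il1a region fell with median scaling. A region 9084 bp from Il1b, the gene of the ligand used, fell from 37.9, 31.7, 37.0 and 37.3 to 20.7, 23.2, 24.6 and 19.8 (-0.71, adjusted p = 0.00245). Receptors of growth factors and cytokines had 6 rises and 1 fall of 45 (13.3% and 2.22%). The fall lay at Tnfrsf1a, the main TNF receptor, from 62.6, 68.0, 65.3 and 63.2 to 29.4, 29.0, 50.5 and 35.2 (-0.88, adjusted p = 5.7e-07). The other TNF receptor gene, Tnfrsf1b, had a rise 7552 bp away, from 33.0, 22.7, 33.4 and 35.2 to 56.1, 53.7, 54.4 and 61.5 (0.88, adjusted p = 1.44e-06). Il6ra, the IL-6 receptor chain, rose by 0.88 and Csf3r, the receptor of G-CSF, by 0.40. Interferon genes had 4 rises and 4 falls of 53 (7.55% each). At Irf7, their master factor, the region at the gene end fell from 73.3, 91.6, 71.8 and 79.8 to 47.5, 63.8, 44.0 and 54.9 (-0.60, adjusted p = 7.51e-06). Jak, Stat and Socs genes had 6 rises and 2 falls of 60, near the shares of all regions.

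Regions at glucocorticoid targets changed in both directions, 10 up and 6 down of 47 (21.3% and 12.8%, beside 9.8% and 4.78% of all regions). With loess the counts were 8 and 9. Sgk1, a kinase induced by glucocorticoids, went from 19.8, 21.8, 21.8 and 12.4 to 29.4, 58.0, 44.0 and 29.7 reads (log2 change 1.06, adjusted p = 2.16e-05) and Klf9 rose by 0.71, whereas Tsc22d3, Dusp1 and Per1 (-0.43) had fallen regions, as did Nr3c1, the receptor itself (-0.65). Another Nr3c1 region rose with median scaling. Circadian genes had 9 rises and 2 falls of 45 (20% and 4.44%), and 5 and 4 with loess. At the clock repressors, a Per2 region fell from 79.9, 92.5, 78.3 and 88.1 to 38, 50.8, 47.9 and 45 (-0.90, adjusted p = 3.46e-09). Another Per2 region rose with median scaling. A Per3 region rose from 17.3, 9.06, 14.5 and 25.9 to 34.5, 30.5, 37.5 and 30.8 (1.09, adjusted p = 0.000139). Bhlhe40 rose from 11.5, 6.34, 14.5 and 13.5 to 17.3, 18.9, 23.3 and 23.1 (0.90, adjusted p = 0.00437); on the deposited fold its change was -0.25, the background having risen more than the reads.

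Glycolysis genes had 13 rises and 3 falls of 98 regions (13.3% and 3.06%; 8 and 3 with loess), led by Hk3, a hexokinase, from 29.7, 28.1, 28.3 and 26.9 to 44.0, 72.5, 55.7 and 42.9 reads (log2 change 0.90, adjusted p = 5.32e-06), with Pfkfb3 (0.82) and the lactate exporter Slc16a3 (0.77). Sterol genes had 6 rises and 1 fall of 56 (10.7% and 1.79%, beside 9.8% and 4.78% of all regions), with Msmo1 leading. Antioxidant genes had 6 rises and 6 falls of 59 (10.2% each): Nfe2l2, which encodes NRF2, went from 47.8, 29.0, 39.9 and 41.4 to 64.8, 75.4, 73.8 and 73.6 (0.88, adjusted p = 1.87e-07), while its targets Slc7a11 (-0.68; 0.17 on the deposited fold) and Me1 (-0.66) had fallen regions. Cell cycle genes had 14 rises and 3 falls of 75 (18.7% and 4%), and 9 and 0 with loess. Heat shock genes had 2 and 0 of 25 (8% and 0%). Amino acid and endoplasmic reticulum stress genes had 5 and 1 of 34 (14.7% and 2.94%), and 2 and 2 with loess. Ribosomal protein genes had 7 rises of 72 (9.72%), about the background share. Chromatin regulators had 6 rises of 55 regions (10.9%), and 3 with loess. The 4 regions at Setd7, a histone methyltransferase of this list, did not pass, with estimates from -0.08 to 0.01. One rise lay at Dnmt1, the maintenance DNA methyltransferase (0.80, adjusted p = 0.00196).

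Some genes carried several changed regions. Plec, which encodes the cytoskeletal linker plectin, had 7 risen regions of 9 (largest 1.22), as did Dgkz, a diacylglycerol kinase, of 10, which also had 1 fallen region. Cyth4, an exchange factor of blood cells, had 6 of 7, Ostf1 and Sfi1 6 of 8 and Gm46963 6 of 9. Rasa3 and Apbb1ip, an integrin activator, had 6 of 11. Among falls, Hdac4, a class IIa histone deacetylase, had 6 of 11 regions (lowest -0.85) and Adgre5, which encodes the adhesion receptor CD97, 5 of 7. Fosb had 4 of 5, Dach1 4 of 7, Marchf1 and Sgms2 4 of 10, Atrnl1 4 of 11 and App 4 of 13. These genes were picked by their counts, and over all regions 9.8% rose and 4.78% fell. With loess the counts of rises were 4 to 7 and of falls 3 to 6.

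Calls that appeared or vanished altogether were few and weak. Of the 73845 regions called in at least 2 libraries, 104 were called in 4 of 4 IL-1β libraries and 0 of 4 baseline libraries (0.141%), and 659 the other way (0.892%). With each list cut to its 37543 best peaks the counts were 327 and 288, and with peaks of a −log10 q of at least 5 they were 62 and 659; why they differ was not tested. Appearing regions had a median of 18 raw reads and vanished ones of 14, against 37 for regions called in all 8, and 12.5% and 7.28% lay at gene ends. Inside S100a3, a calcium-binding protein, the IL-1β libraries held 66, 38, 43 and 59 raw reads at a region not called at baseline (chr3:90587548-90588027). Near Fam207a they held 43, 49, 36 and 49 (chr10:77520584-77520908), and inside Il1rl2, the IL-36 receptor of the IL-1 family, 35, 15, 23 and 32 (chr1:40358874-40359157). A region inside Tmbim6, 1 that lies 42734 bp from D16Ertd472e and 1 on chromosome 2 complete the appearing ones of highest significance. Among vanished regions, the baseline libraries held 26, 55, 54 and 33 raw reads inside Trappc9, a trafficking subunit (chr15:72916754-72917202), and 39, 57, 47 and 42 inside Gda, guanine deaminase. The others lay inside Smpdl3b, 31180 bp from Lmo1, 33598 bp from Ndufa10, and at a site on chromosome 5 with no gene within 50 kb.

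Regions near microRNA genes were looked up as well, and the following were chosen after their values were seen. The mature sequences, with the seed (bases 2 to 8) in capitals, belong to microRNAs known in inflamed myeloid cells; no 2 of the 5 share a seed, although those of miR-23a-3p and miR-27a-3p begin with the same 5 bases.
miR-21a-5p: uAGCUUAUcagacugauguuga
miR-223-3p: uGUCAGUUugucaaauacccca
miR-23a-3p: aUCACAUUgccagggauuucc
miR-27a-3p: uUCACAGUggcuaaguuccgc
miR-24-3p: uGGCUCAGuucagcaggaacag

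A region 6452 bp from Mir21a (chr11:86577149-86577615) rose from 47.0, 54.4, 52.2 and 40.4 to 62.2, 88.5, 80.3 and 72.5 reads (log2 change 0.64, SE 0.10, adjusted p = 5.46e-06). At 1380 bp from Mir223 a region rose from 28.0, 30.8, 32.6 and 38.3 to 42.3, 49.3, 53.1 and 39.6 (0.51, adjusted p = 0.00769). A region 7348 bp from the first member of the Mir23a, Mir27a and Mir24-2 cluster (chr8:84200629-84201170) fell from 96.4, 102, 99.3 and 120 to 64.8, 56.6, 81.6 and 71.4 (-0.61, adjusted p = 2.26e-06). The groups did not overlap in any of these 3. Distances are to the hairpin, and which gene a region serves is not known.

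Much of the response was also seen in diabetic mice, whose libraries were not used to choose these regions. Over the 25009 tested regions that were also called in all 8 diabetic libraries, the log2 changes of control and diabetic mice had a correlation of 0.652, given as a description across regions. Of 2481 regions risen in control mice, 50.3% were higher in 4 of 4 diabetic mice, against 12.3% of all regions, and of 1192 fallen ones 46.6% were lower in 4 of 4, against 9.09%. Ankrd12 changed by 2.06 and Suco by -1.63 in diabetic mice, beside 2.07 and -1.72 in control mice. The median change was 0.41 in control and 0.31 in diabetic mice for the risen regions, and -0.53 and -0.31 for the fallen ones, sets chosen on the control values. No region differed between the phenotypes in its response at an adjusted p of 0.05 (limma interaction with mouse as a block; 849 regions at an unadjusted p under 0.05, smallest adjusted p 0.986), which does not show that the responses were alike. Of the 104 appearing regions 98 had more IL-1β than baseline calls in diabetic mice (94.2%, against 16.4% of all regions), and of the 659 vanished ones 485 had fewer (73.6%, against 28.1%).

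**Figure D5:**
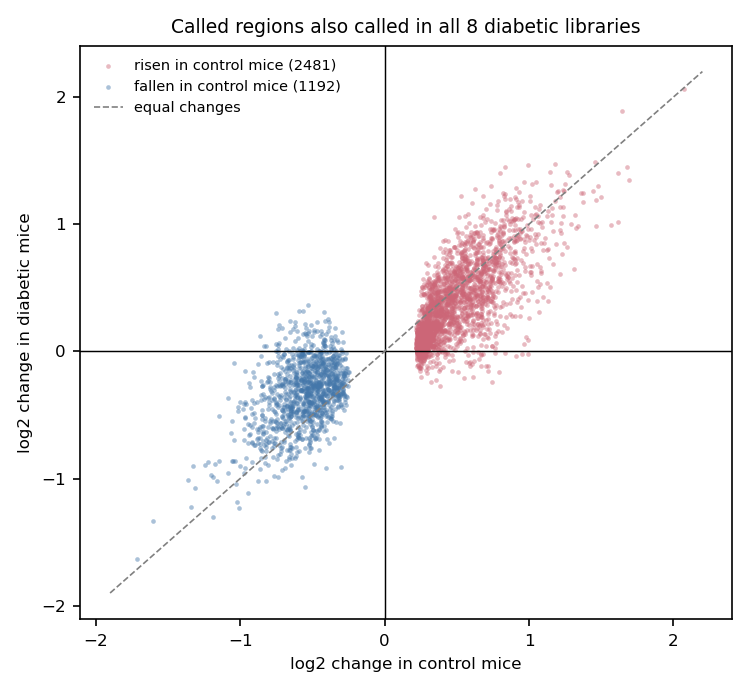
Log2 change after IL-1β in diabetic mice (y axis) against control mice (x axis) for the 2481 risen and 1192 fallen regions of the control mice that were tested in both. Of the risen regions 93.5% had a higher mean after IL-1β in diabetic mice, against 52.4% of all 25009 regions tested in both.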

How the data were processed

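Open chromatin was measured by ATAC-seq in 16 libraries; the 8 control libraries are reported here. The deposited files are MACS2 peak lists per library (mm10, MACS2 2.1.1, Bowtie2 2.2.6, Trim Galore 1.8, per the submitters' processing notes), made from 50-bp single reads per the labels. They give, as the authors deposited them, a fold enrichment (a ratio) of each summit over local background, −log10 p and −log10 q values, and a score made from q, with no read counts. The treatment of the Tn5 offset and of duplicates is not stated in the labels used here. The lowest deposited −log10 q was 1.30 and the narrowest peak 147 bp.

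MACS2's fold is (reads + 1)/(background + 1) and its p is a Poisson tail, so whole reads and the local background were solved for each summit; the solution matched the deposited −log10 p within 0.001 at 100% of summits after rounding. They give the height of 1 summit, not all reads of a peak. Peaks overlapping by 1 bp or more were merged on the main chromosomes. Regions called in all 8 libraries were fitted with limma 3.58.1 (R 4.3.3; eBayes with trend) on log2 reads, scaled so that library medians are equal, with the mouse as a block, since the series design says each sample was divided; Benjamini-Hochberg adjustment ran over all 29625 regions. Deviations from the group means correlated at 0.39, 0.32, 0.01 and 0.07 between the portions of mice 1 to 4, and between portions of different mice at -0.33 to 0.22; the block rests on the design, not on these values. Keeping regions called in every library leaves out those too weak to be called in a group, which the comparison of calls covers. The labels name no batch. Fits were tested on simulated data.

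Genes are RefSeq gene bodies of GRCm38.p6, the patch release of mm10. Regions were placed by distance to either gene end in place of start sites, and exons and introns were not used. Of 631 listed symbols in 35 lists 629 matched. The named regions are, among those past the threshold and changed alike in 4 of 4 mice, the 12 largest rises and falls, at most 1 per nearest gene; the 3 largest changes per list; the 8 genes with most risen and with most fallen regions within 10 kb; and the 6 appearing and 6 vanished regions of highest mean −log10 q. Members, lists and rules were chosen with earlier results of these data known. Python 3.11.15 with pandas 2.3.3 and scipy 1.17.1 was used for the rest. Alternatives were no replicate block, background scaling, cyclic loess, calls in at least 6 of 8 libraries, the deposited fold, a −log10 q of at least 5, overlaps of at least 50 bp, lists of equal length and each mouse left out; leaving out each of 8 mice from the comparison with diabetic mice was added after seeing the data.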

Additional observations from a re-analysis of the deposited data

Results flagged for a closer look

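Among the 12 largest rises and 12 largest falls and the other values reported per group, 56 groups of 4 libraries were examined for 1 library standing far from the other 3, of which chance flags about 1 in 20. The 4 found follow. At Sema4a the baseline library of mouse 4 held 11.4 scaled reads, below the other 3 baseline libraries at 20.3 to 21.4. At Tram2 the baseline library of mouse 1 held 28.84, above the others at 7.25 to 8.70. At Mepe the IL-1β library of mouse 4 held 10.99, below 20.3 to 21.6, and at Ppp1r12b the IL-1β library of mouse 3 held 16.83, above 14.3 to 14.7. What sets these libraries apart at these regions was not tested.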

How the results depend on the processing

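The 2902 rises and 1415 falls became 1287 and 728 with no replicate block, 19 and 75 with background scaling and 588 and 502 on the deposited fold. Leaving out 1 mouse gave 1577 (without mouse 3) to 2577 rises and 896 (without mouse 3) to 1096 falls; without mouse 2 there were 1794 rises. The counts stayed within 1.5 times with cyclic loess (1977 and 1445), calls in at least 6 of 8 libraries (3224 and 1601), a −log10 q of at least 5 (2255 and 1217) and overlaps of at least 50 bp (2903 and 1417). Regions called in 4 of 4 IL-1β and 0 of 4 baseline libraries (104) became 327 with lists of equal length and 62 with the stricter q, and those called the other way (659) became 288 with lists of equal length. With 1 mouse left out and 3 libraries a group, these counts ran from 134 to 514 and from 898 to 2379: 203, 514 and 232 without mouse 1, 2 and 3, and 2379, 1109 and 2343 without mouse 1, 2 and 4. The share of summits at gene ends was 25.9% at baseline and 29.1% after IL-1β, a difference of 3.17 percentage points (exact sign-flip p = 0.5) that became -0.002957 with lists of equal length and 1.28 (without mouse 2) to 4.63 with 1 mouse left out.

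Of 102 named regions 100 kept direction and call with loess, the others being Bag3 and Ccnd2, 93 with no replicate block, 28 with background scaling, and 91 to 96 with a mouse left out; direction turned only on the deposited fold, where 43 kept their call, 50 lost it and 9 turned. The log2 changes of these 9 on the deposited fold were 0.09136 for Tsc22d3, 0.0524 for Il1rap, 0.06142 for Il18rap, 0.2121 for Fosb, 1.123 for Fos, 0.4558 for Dusp1, 0.1416 for Hdc, 0.1705 for Slc7a11 and -0.2535 for Bhlhe40; the ratio divides by the local background, which moved too. With the stricter q 57 were still tested, and these kept their call. In the comparison with diabetic mice, the smallest adjusted p ran from 0.706 to 1 with 1 mouse left out. The cause of the other shifts was not tested. The low reads at single summits limit how small a change can be called.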
